A study of Mus musculus with 24 samples.

Results

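Transcripts of 10 genes of the bone morphogenetic protein (BMP) pathway were followed in mouse embryonic stem cells labelled as wild type or as Smad2 knockouts. They were chosen by symbol and not by a rule on measured values, but earlier results of these data were known. The genes were the BMP ligands Bmp4, Bmp7 and Bmp8b, the inhibitor of DNA binding genes Id1, Id2, Id3 and Id4, and the feedback genes Bambi, Smurf1 and Smurf2. All 10 were found in both of the authors' deposited tables, among 19780 genes in the table for control cells, 19979 in the table for paused cells and 20625 genes in all. The cells were of the E14 line, a line of embryonic stem cells, grown on gelatin in medium with serum and leukaemia inhibitory factor. They were wild type (WT) or came from 1 of 2 lines labelled as Smad2 knockouts (KO1 and KO2). Each was kept for 12 h in control medium or with INK128 at 200 nM, which inhibits the growth kinase mTOR and induces a paused state like that of the blastocyst in diapause. The labels give 24 poly(A) RNA libraries, 4 for each of the 6 groups, and do not say how the knockout lines were made or whether each is a single clone.

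BMP ligands bind receptors that phosphorylate Smad1, Smad5 and Smad9, which join Smad4 and enter the nucleus, while Nodal and activin act through Smad2 and Smad3 and share Smad4. The Id genes are the classic direct targets of the BMP branch. Their proteins hold a helix-loop-helix domain without a DNA-binding region, pair with E proteins and keep them from DNA. In embryonic stem cells grown with serum, BMP signals and Id proteins are known to hold back neural differentiation, together with leukaemia inhibitory factor.

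Each of the authors' deposited tables gives for a gene a mean of normalized read counts, a log2 fold change, its standard error (SE) and an adjusted p. No value of a single library was analysed here, so levels per replicate, the depth per library and each knockout line on its own are unknown. Whether both knockout lines entered a table is not given in the sources used here. The tables do not name the numerator, and the direction was taken from Smad2, whose change was -0.35 (SE 0.07) in control and -0.63 (SE 0.06) in paused cells per the authors' deposited tables: a negative change is read as lower in the knockout. That Smad2 is lower is thus an assumption and not a result. Under it, the libraries labelled knockout stood at 78.6% of the wild-type Smad2 level in control and 64.6% in paused cells. In either direction the groups differed in Smad2 1.27-fold in control and 1.55-fold in paused cells. Under either reading the transcript was present in both groups, and the part of the gene that was targeted is not given in the sources used here, so its level does not check the labels. The opposite reading would turn every direction. Changes were small and widespread in the series: the authors' deposited tables gave an adjusted p under 0.05 to 41.4% of genes with a p in control cells and to 42.6% in paused cells. A gene is called, and said to rise or fall, where its adjusted p was under 0.05. Pou5f1, Sox2, Nanog, Zfp42 and the other 6 markers listed for embryonic stem cells were all found in both tables, with a summed share of 5586 ppm in control and 5114 ppm in paused cells (ppm, parts per 1000000 of the summed mean counts of a table).

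The promoter windows of 3 Id genes and of Bmp4 are shown because the Id genes moved together and Bmp4 moved the other way. Each runs from 250 bases before to 50 bases after the transcript start, 5′ to 3′ on the strand of the gene, from RefSeq (GRCm38.p6). Of the 10 genes, 7 had a window in the set used here, and Bmp7, Id1 and Bambi had none. Their absence from this set does not show that RefSeq lacks an entry for them. Capitals mark 3 motifs on either strand: GTCT, the core of the Smad-binding element, and GGCGCC and GGAGCC, GC-rich motifs known to be bound by Smads of the BMP branch.
Id2 (chr12:25096043-25096342, minus strand): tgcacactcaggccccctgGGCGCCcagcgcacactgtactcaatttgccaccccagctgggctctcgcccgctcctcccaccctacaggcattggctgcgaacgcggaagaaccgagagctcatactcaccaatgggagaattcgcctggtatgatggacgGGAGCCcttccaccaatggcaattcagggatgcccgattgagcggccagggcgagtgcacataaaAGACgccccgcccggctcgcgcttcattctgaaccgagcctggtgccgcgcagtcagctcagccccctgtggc
Id3 (chr4:136143572-136143871, plus strand): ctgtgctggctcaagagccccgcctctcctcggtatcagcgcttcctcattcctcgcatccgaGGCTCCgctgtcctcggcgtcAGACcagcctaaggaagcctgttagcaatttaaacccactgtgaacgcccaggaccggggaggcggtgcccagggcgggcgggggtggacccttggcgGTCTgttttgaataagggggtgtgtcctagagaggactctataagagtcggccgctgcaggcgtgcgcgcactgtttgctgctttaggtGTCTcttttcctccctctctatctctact
Id4 (chr13:48260866-48261165, plus strand): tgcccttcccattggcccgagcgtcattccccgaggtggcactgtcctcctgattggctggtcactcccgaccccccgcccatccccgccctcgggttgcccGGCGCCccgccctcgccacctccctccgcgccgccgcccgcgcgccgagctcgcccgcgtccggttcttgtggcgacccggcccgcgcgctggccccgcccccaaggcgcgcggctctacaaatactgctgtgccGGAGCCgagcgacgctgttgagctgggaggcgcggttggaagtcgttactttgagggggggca
Bmp4 (chr14:46390620-46390919, minus strand): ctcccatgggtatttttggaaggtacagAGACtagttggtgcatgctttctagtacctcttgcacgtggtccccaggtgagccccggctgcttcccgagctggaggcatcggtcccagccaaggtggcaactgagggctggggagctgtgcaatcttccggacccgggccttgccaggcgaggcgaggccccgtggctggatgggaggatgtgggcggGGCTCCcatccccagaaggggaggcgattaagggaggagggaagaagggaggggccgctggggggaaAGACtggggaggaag

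Id3 held GTCT at 3 places and Id2 at 1, while Id4 held none. GGCGCC lay once in the window of Id2 and once in that of Id4, and was not found in those of Id3 and Bmp4. GGAGCC lay once in each of the 4 windows. Of the windows not shown, that of Smurf2, which was not called, held GGCGCC at 2 places and GTCT at 4, and that of Smurf1 held GTCT at 3. Both also held GGAGCC at 2 places. The window of Bmp8b held GTCT at 2 places and GGAGCC at 1, and neither Smurf1 nor Bmp8b was called. Bmp4 held GTCT at 2 places. In all 32851 promoter windows of this length, 88.0% held GTCT, 11.9% GGCGCC and 30.8% GGAGCC, so GTCT and GGAGCC were common letters. The composite of the BMP response element, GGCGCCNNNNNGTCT, which holds both of the shorter motifs, was in 0.0731% of all windows and in none of the 7. The windows are short, and a match here is a description of letters.

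Bmp4, the ligand of the group with the highest mean count, fell in both conditions. For control cells the authors' deposited table gave a mean of 1004 normalized counts and a change of -0.50 (SE 0.10, adjusted p 1.15e-05). Read in the direction set by Smad2, that change puts the knockout at 70.7% of the wild-type level (95% interval 61.4 to 81.4%), and in either direction the groups differ 1.41-fold. For paused cells the authors' deposited table gave a mean of 1685 normalized counts and a change of -0.56 (SE 0.09, adjusted p 7.55e-10). In the direction set by Smad2 that is 67.9% of the wild type (60.4 to 76.2%), and in either direction a 1.47-fold difference. Both intervals lie below the wild-type level and overlap one another over most of their length. Bmp4 lies on chromosome 14 (46383520 to 46390669, GRCm38, minus strand). Gm15217, which overlaps it on the opposite strand, had a mean of 4.23 normalized counts per the authors' deposited table for control cells.

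The other ligands were not called. Bmp7, a ligand that pairs with Bmp4 in heterodimers, was near the wild-type level, with changes of 0.08 (SE 0.13) in control and 0.17 (SE 0.13) in paused cells per the authors' deposited tables. Its 95% intervals, -0.17 to 0.33 and -0.08 to 0.43, leave room for a change of up to 1.35-fold. Bmp8b, known for its part in germ cell formation, was lower by -0.44 (SE 0.20, adjusted p 0.0605) in control and -0.22 (SE 0.24, adjusted p 0.497) in paused cells per the authors' deposited tables. Its standard errors were wide against the medians over all genes, 0.11 in control and 0.10 in paused cells per the authors' deposited tables, and a fall as large as that of Bmp4 lies inside both of its 95% intervals. Bmp8a is a close paralog, so reads can be split between the genes. Bmp8a had changes of -0.28 and -0.14 in control and paused cells per the authors' deposited tables and was not called either. Bmp8b also overlaps Oxct2b on its own strand and Ppie on the other, and Ppie alone of these fell in control cells (-0.19, SE 0.05) per the authors' deposited table.

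All 4 Id genes rose in both conditions. In control cells the 4 rises lay between 0.43 and 0.51 on the log2 scale per the authors' deposited table. Id1 changed by 0.43 (SE 0.07, adjusted p 3.54e-09), Id2 by 0.50 (SE 0.09, adjusted p 6.55e-07), Id3 by 0.45 (SE 0.05, adjusted p 3.59e-21) and Id4 by 0.51 (SE 0.11, adjusted p 3.4e-05) per the authors' deposited table. The 95% intervals of the 4 folds overlap, from 1.23 to 1.48 for Id1 and from 1.22 to 1.65 for Id4. No order among the Id genes can be read from these values.

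In paused cells the rises of the Id genes ran from 0.47 to 0.91. Id1 rose by 0.91 (SE 0.07, adjusted p 2.06e-39) per the authors' deposited table for paused cells, or 1.88-fold (95% interval 1.72 to 2.06). Id3 rose by 0.80 (SE 0.06, adjusted p 6.34e-38) per the authors' deposited table, or 1.74-fold (1.60 to 1.89). Id2 rose by 0.57 (SE 0.09, adjusted p 2.23e-09) per the authors' deposited table, or 1.49-fold (1.32 to 1.68), and its interval lies below that of Id1. Id4 rose by 0.47 (SE 0.16, adjusted p 0.0085) per the authors' deposited table, or 1.39-fold (1.12 to 1.72), and is the least precise of the 4. The genes of a table come from the same libraries, so the differences between Id genes were not tested. The antisense transcript A330033J07Rik overlaps Id4 and had a mean of 4.40 normalized counts per the authors' deposited table for paused cells.

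Among the feedback genes only Bambi was called. Bambi codes for a decoy receptor that blocks signalling and is itself a BMP target. It rose by 0.31 (SE 0.07, adjusted p 4.79e-05) in control and by 0.23 (SE 0.08, adjusted p 0.016) in paused cells per the authors' deposited tables, or 1.24-fold and 1.18-fold. Smurf1 and Smurf2 code for ubiquitin ligases that mark Smads and receptors for breakdown. Smurf1 had changes of 0.11 (SE 0.05, adjusted p 0.0849) and 0.06 (SE 0.04, adjusted p 0.22) in control and paused cells per the authors' deposited tables. Smurf2 had changes of -0.03 (SE 0.05, adjusted p 0.599) and 0.08 (SE 0.04, adjusted p 0.0651) in control and paused cells per the authors' deposited tables. From the deposited standard errors, the upper ends of the 95% intervals are at most 1.16-fold for Smurf1 and 1.11-fold for Smurf2. With changes centred on the median of abundant genes, which lay at -0.05 in both tables, Smurf1 was called higher in both conditions (0.17 and 0.11), Smurf2 was called higher in paused cells (0.12), and the control value of Smurf2 turned to 0.02, not called.

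**Figure D1:**
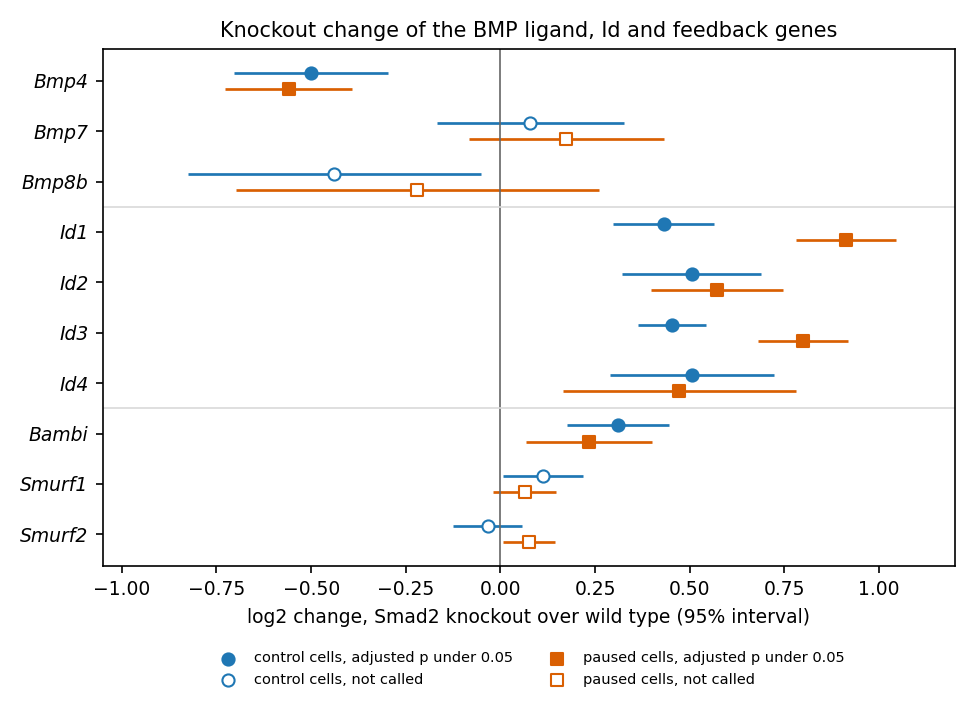
Log2 change of each gene, knockout over wild type, in control cells (circles) and paused cells (squares), with 95% intervals from the deposited standard errors; filled symbols have an adjusted p under 0.05. Bmp4 lies near -0.5 in both conditions, the 4 Id genes lie between 0.43 and 0.91, and both Smurf genes lie close to 0.

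In all, 6 of the 10 genes were called in control cells, 5 higher and 1 lower, against a background of 41.4% of all genes called (19.5% higher and 21.9% lower). The same 6 genes were called in paused cells in the same directions, against 42.6% of all genes (20.5% higher and 22% lower). The split of all calls moves with the scaling: 47.1% of calls were higher in control and 48.2% in paused cells, but 60.1% and 60.9% with changes centred on the median of abundant genes. The median change of the 10 genes was 0.21 in control and 0.20 in paused cells, beside medians of 0.00 over all genes. No gene of the 10 changed at least 2-fold and was called, against 6.98% of all genes in control and 7.1% in paused cells. Among all genes, and read in the direction set by Smad2, the control change of Bmp4 ranked at the 8.27 percentile and its paused change at the 6.55 percentile. Id1 ranked at the 81.0 percentile in control and at the 92.9 percentile in paused cells, and Id3 at the 81.8 and 90.9 percentiles. Under the opposite reading each of these ranks would be counted from the other end, with Bmp4 near the top and Id1 and Id3 near the bottom.

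Over all genes the deposited statistic had a middle spread of 2.76 in control and 2.80 in paused cells, where 1 is the value for unchanged genes with errors that cover all variation. With the statistic scaled to that spread, Id3 alone of the 10 was called in control cells (adjusted p 0.0288), and Id1 and Id3 alone in paused cells (adjusted p 3.17e-04 and 4.41e-04). Bmp4 then had an adjusted p of 0.647 in control and 0.296 in paused cells.

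Whether the knockout change depended on pausing was tested as the paused change minus the control change over the combined standard error, two-sided, adjusted over the 19134 genes in both tables. Per the labels no library is shared by the tables, which were normalized separately. Id1 rose more in paused cells, by 0.48 (SE 0.10, adjusted p 3.57e-04), which makes its fold 1.40 times as large (95% interval 1.23 to 1.59). Id3 also rose more in paused cells, by 0.35 (SE 0.08, adjusted p 0.00177), or 1.27 times (1.15 to 1.41). These are 2 of 10 genes, against a background of 1.44% of all genes called (0.716% higher and 0.721% lower in paused cells). Id1 was still called once the statistic was divided by its middle spread, 1.23 (adjusted p 0.0318), whereas Id3 was not (adjusted p 0.0763). Neither was called against a difference of at most 1.2-fold, a test that called 2 genes of all.

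The other 8 genes were not called for the difference. That of Id2 was 0.07 (95% interval -0.19 to 0.32), and that of Id4 was -0.03 with a wide interval (-0.41 to 0.34). Bmp4 had a difference of -0.06 (-0.32 to 0.20) and Bambi one of -0.08 (-0.29 to 0.14). For Smurf1 and Smurf2 the differences were -0.05 (-0.18 to 0.09) and 0.11 (-0.0037 to 0.22). Bmp7 (0.10) and Bmp8b (0.22) had standard errors of 0.18 and 0.31, and a difference of the size seen for Id1 lies inside the interval of Bmp8b.

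**Figure D2:**
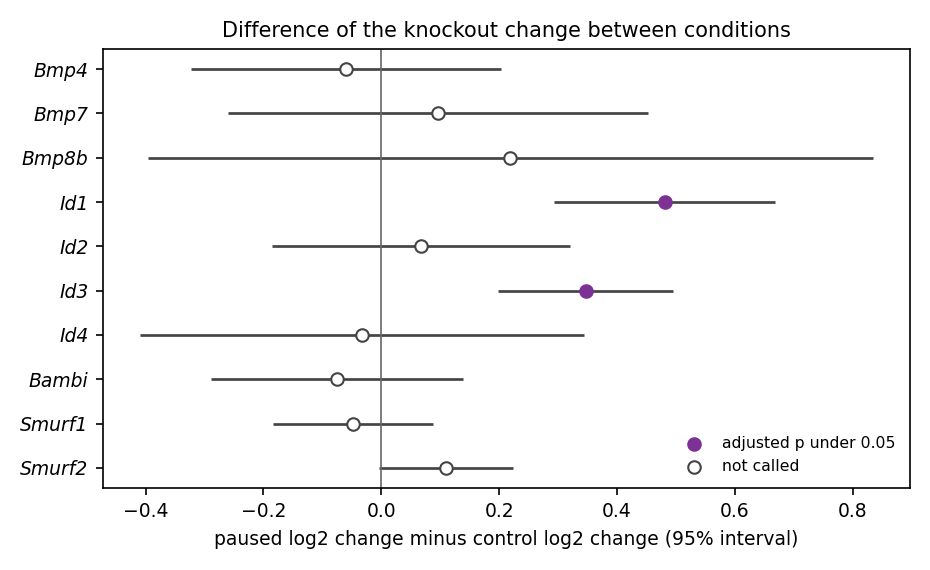
Paused log2 change minus control log2 change of each gene, with 95% intervals; filled symbols have an adjusted p under 0.05 over all genes in both tables. Id1 (0.48) and Id3 (0.35) lie to the right of 0 and were called, and the intervals of the other 8 genes reach 0.

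**Figure D3:**
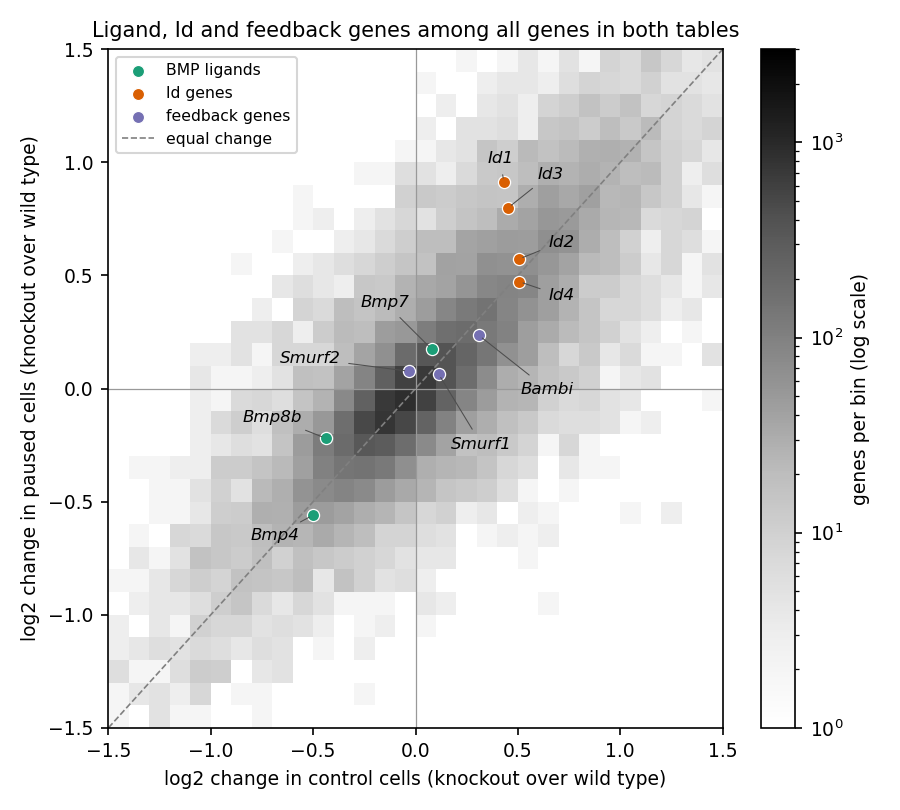
Log2 change in paused cells against that in control cells, with the number of genes per bin in grey (log scale), cut at 1.5 on both axes, and the 10 genes in colour; the dashed line marks equal changes. Id1 and Id3 lie above the line, Id2, Id4, Bambi and Bmp4 lie close to it, and Bmp7, Smurf1 and Smurf2 lie near the centre of the cloud.

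The genes whose pair of changes lay closest to those of Bmp4 were Slc25a30, Prrg4 and Epcam, at distances of 0.01, 0.01 and 0.02 on the log2 scale over the 2 conditions. Closest to Id1 were Akr1b8, Id3 and Cyp2s1, at distances of 0.03, 0.11 and 0.13. The search covered 10483 genes whose share was 5 ppm or more in both tables. With only 2 conditions behind each distance, the likeness is a description.

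The mean counts cover both genotypes of a condition, as the authors averaged them. Per kilobase of GENCODE M21 exons in the control table, Id1 had the highest mean (4996 normalized counts per kilobase), followed by Id3 (2175) and Id2 (1439), and Id4 was far lower (47.9). Bmp4 had 447 normalized counts per kilobase there, against 61.1 for Bmp8b and 25.0 for Bmp7. Smurf2 and Smurf1 stood at 370 and 334 normalized counts per kilobase, and Bambi at 97.3. These levels have no spread over libraries, so the order of close neighbours, such as Smurf2 and Smurf1, cannot be read as a difference.

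The Id genes with high counts held a smaller share of the summed mean counts in paused than in control cells. Id1 held 126 ppm in the control and 54.2 ppm in the paused table, Id3 84.6 and 51.7, and Id2 76.2 and 50.1. Bambi went the same way, with 10.7 ppm in the control and 7.46 in the paused table. Bmp4 held the larger share in the paused table, 38.0 against 21.8 ppm, as did Id4 with 5.42 against 4.00. Bmp7 had shares of 2.18 and 3.35, Bmp8b 5.15 and 6.08, Smurf1 46.0 and 61.4, and Smurf2 49.5 and 59.7 ppm in control and paused cells. The tables were normalized separately and mix genotypes, so these shares are set side by side with no test of an INK128 effect.

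**Figure D4:**
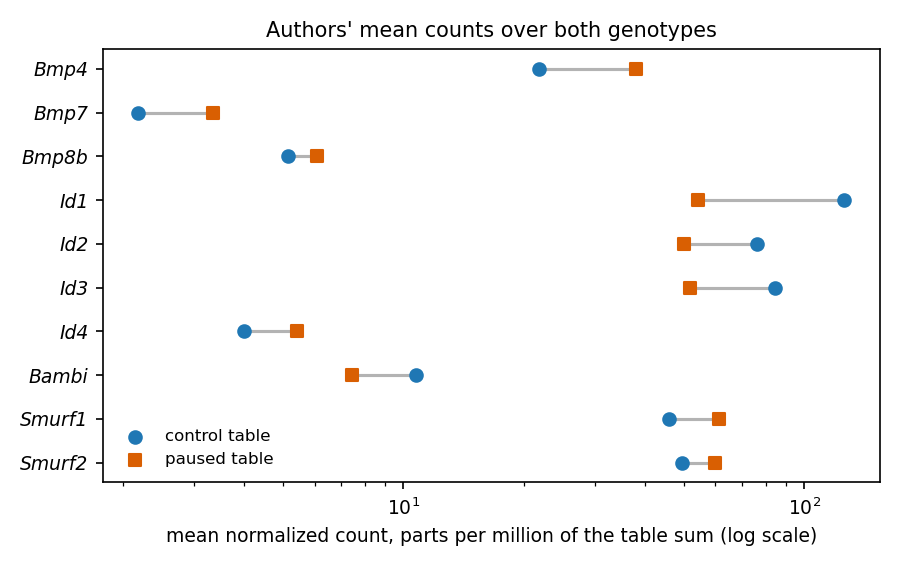
Mean normalized count of each gene over both genotypes, in ppm of the table's summed mean counts (log axis), in the control table (circles) and the paused table (squares). Id1, Id2, Id3 and Bambi lie lower in the paused table, and the other 6 genes lie higher.

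Other genes of the pathway came from a list of 72, of which 65 were found for control and 64 for paused cells. Of these, 38 were called in control cells, 18 higher and 20 lower (median change -0.02), and 40 in paused cells, 19 higher and 21 lower (median -0.05). These shares lie above the background of 41.4% and 42.6%, but the calls are divided between directions. Of these genes, 32 were called in both conditions, 17 higher and 15 lower, with none in opposite directions. That is 50% of the 64 found for both, beside 30.4% of the 19134 genes in both tables, of whose shared calls 0.532% were opposite.

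Of 12 BMP targets outside the Id family, 6 rose and 3 fell in control cells (median change 0.70). In paused cells 7 rose and 2 fell (median 1.01). Of all genes, 19.5% and 20.5% were called higher and 21.9% and 22% lower, in control and paused cells. Hand1, a factor of heart and trophoblast, rose by 1.95 (SE 0.18) in control and 2.69 (SE 0.26) in paused cells per the authors' deposited tables. The homeobox gene Dlx3 rose by 1.63 (SE 0.15) and 2.39 (SE 0.19) per the authors' deposited tables, in the same order. Gata3, a trophoblast and lymphoid factor, rose by 1.54 (SE 0.13) and 2.04 (SE 0.15) per the authors' deposited tables. Dlx5, at low means of 24.2 and 5.12 normalized counts, rose by 1.50 (SE 0.30) and 2.20 (SE 0.74) per the authors' deposited tables. Chosen after their values were seen, Msx2 rose by 1.01 and 1.17 and the phosphatase gene Dusp9 by 0.73 and 0.85, whereas Cdx2 fell by 0.84 and 0.92 in control and paused cells per the authors' deposited tables. The rises named here had larger values than those of the Id genes in both conditions, apart from Dusp9 against Id1 in paused cells. None of the 12 was called for the difference between conditions, where 1.44% of all genes were; that of Dlx3 was 0.76 (SE 0.24, adjusted p 0.0834) and that of Hand1 0.74 (SE 0.31, adjusted p 0.254).

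Of the 6 Smads listed, 5 were called in control cells, 2 higher and 3 lower, and 6 in paused cells, 2 higher and 4 lower, with both directions among the BMP-branch Smads and among the inhibitory Smads. Over all genes 41.4% and 42.6% were called. Among the receptor-activated Smads of the BMP branch, Smad9, at a low count, rose by 1.23 (SE 0.20) in control and 1.28 (SE 0.19) in paused cells per the authors' deposited tables. Smad1, named after its values were seen, fell by 0.18 (SE 0.05) and 0.14 (SE 0.06) per the authors' deposited tables. Smad5, named likewise, had a change of -0.06 (SE 0.05, adjusted p 0.371) in control cells, not called, and fell by 0.15 (SE 0.05, adjusted p 0.0132) in paused cells per the authors' deposited tables. The shared partner Smad4 fell by 0.19 (SE 0.04) and 0.20 (SE 0.05) per the authors' deposited tables. Of the inhibitory Smads, Smad6, which acts mainly on BMP signals, rose by 0.57 (SE 0.10) and 0.67 (SE 0.06), while Smad7, which acts on both branches, fell by 0.33 (SE 0.07) and 0.44 (SE 0.06) in control and paused cells per the authors' deposited tables. Smad6 thus moved in the direction of the Id genes and of Bambi, and Smad7 in the opposite direction.

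Receptors and co-receptors gave 5 calls of 10 in each condition, 2 higher and 3 lower, near the shares over all genes (41.4% and 42.6%). The co-receptor Eng rose by 0.54 (SE 0.10) in control and 0.48 (SE 0.06) in paused cells per the authors' deposited tables. Of the co-receptors of the repulsive guidance family, Rgma rose by 0.43 (SE 0.11) and 0.67 (SE 0.11), and Rgmb fell by 0.55 (SE 0.11) and 0.70 (SE 0.07) per the authors' deposited tables. Bmpr1b, at a low count, fell by 0.57 (SE 0.19) and 0.55 (SE 0.20) per the authors' deposited tables. Of the other ligands, 4 of 8 were called in control and 4 of 7 in paused cells, 2 in each direction. All of the ligands named by rule had low counts. The oocyte ligand Bmp15 rose by 0.97 (SE 0.34) and 1.34 (SE 0.25), and Gdf6 fell by 1.02 (SE 0.37) and 0.97 (SE 0.33) in control and paused cells per the authors' deposited tables. Bmp2, the closest relative of Bmp4, fell by 0.82 (SE 0.35) in control cells and had a change of -0.32 (SE 0.38), not called, in paused cells per the authors' deposited tables. Gdf7 fell by 0.77 (SE 0.31) in paused cells and had a change of 0.13 (SE 0.40), not called, in control cells per the authors' deposited tables.

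Extracellular antagonists were called in both directions, 3 of 14 higher and 3 lower in control cells, and 4 higher and 4 lower in paused cells. Over all genes, 19.5% and 20.5% were called higher and 21.9% and 22% lower, in the same order of conditions. Fst, the activin-binding follistatin, fell by 1.99 (SE 0.29) in control and 1.42 (SE 0.34) in paused cells per the authors' deposited tables. Chrdl2, at a low count, rose by 2.12 (SE 0.53) and 2.69 (SE 0.51) per the authors' deposited tables. Bmper, also at a low count, rose by 0.95 (SE 0.27) and 2.27 (SE 0.27) per the authors' deposited tables, and its difference between conditions was called (1.32, SE 0.38, adjusted p 0.0380).

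HECT ligases and Smad regulators gave 3 genes of 15 higher and 6 lower in control cells, and 2 higher and 6 lower in paused cells, beside 19.5% and 20.5% of all genes higher and 21.9% and 22% lower. Nedd4l, a ligase of the same family as the Smurf genes, rose by 0.62 (SE 0.08) in control and 0.62 (SE 0.06) in paused cells per the authors' deposited tables. The corepressor gene Ski fell by 0.36 (SE 0.04) and 0.68 (SE 0.06), and its relative Skil by 0.63 (SE 0.07) and 0.32 (SE 0.07) per the authors' deposited tables. The difference of Ski was called (-0.32, SE 0.07, adjusted p 0.00298), and that of Skil, 0.31 in the other direction, was not (adjusted p 0.0696). The ligase gene Rnf111 rose by 0.32 (SE 0.07) and 0.16 (SE 0.04) per the authors' deposited tables.

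The partners of the Id proteins were divided as well. Of the E proteins, Tcf3 fell by 0.20 (SE 0.07) in control and 0.23 (SE 0.04) in paused cells, and Tcf4 by 0.40 (SE 0.06) and 0.35 (SE 0.06) per the authors' deposited tables. Tcf12 had changes of -0.09 and 0.07, neither of them called, per the authors' deposited tables. Of 8 basic helix-loop-helix factors found for control cells 3 rose and 2 fell, and of 7 found for paused cells 1 rose and 2 fell. Ascl2 rose by 1.35 (SE 0.12) in control and 1.01 (SE 0.13) in paused cells, and Neurod1 fell by 0.48 (SE 0.14) and 0.95 (SE 0.13) per the authors' deposited tables. Neurog1 rose by 1.06 (SE 0.16) in control cells and had a change of 0.73 (SE 0.46), not called, in paused cells per the authors' deposited tables. Over the E proteins and factors together, 7 of 11 genes were called in control and 5 of 10 in paused cells, beside 41.4% and 42.6% of all genes.

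**Figure D5:**
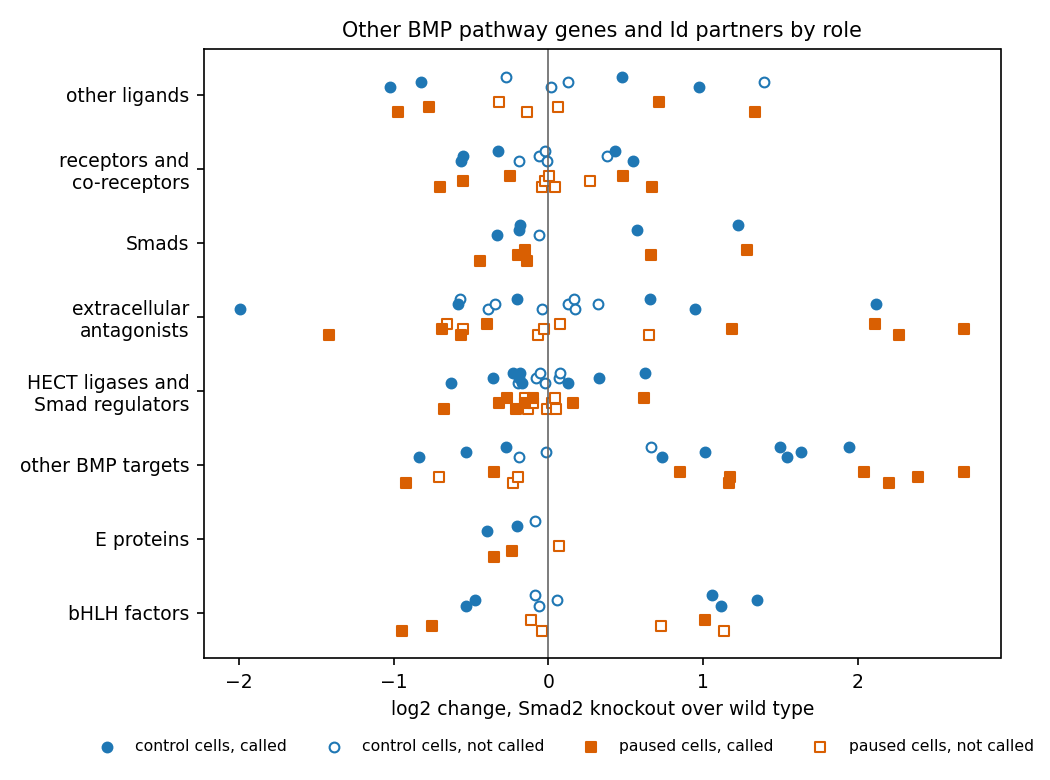
Log2 change, knockout over wild type, of the other BMP pathway genes and of the partners of Id proteins by role, in control cells (circles) and paused cells (squares); filled symbols have an adjusted p under 0.05. Every role but the E proteins in control cells holds genes on both sides of 0; BMP targets run from -0.84 to 1.95 in control and from -0.92 to 2.69 in paused cells.

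Markers of primitive endoderm, 2 of trophoblast and 3 of embryonic stem cells rose beside the Id genes; the markers named here were picked with their values in view. Of 9 markers of primitive endoderm, 8 rose in control and 8 in paused cells, with medians of 1.01 and 0.96 and a summed share of 197 and 239 ppm, where 19.5% and 20.5% of all genes were called higher and 21.9% and 22% lower. Sox17 and Gata6, which define that lineage, rose by 2.19 and 1.76 in control cells and by 1.28 and 1.35 in paused cells per the authors' deposited tables, with means of 41.1 and 82.6 normalized counts in control cells. Of 7 trophoblast markers found, 2 rose in each condition and 1 fell in control cells, with medians of 0.16 and -0.00 and a summed share of 385 and 452 ppm. Gata2 rose by 1.16 (SE 0.10) and 2.27 (SE 0.16), and Plet1 by 1.39 (SE 0.17) and 2.12 (SE 0.28), in control and paused cells per the authors' deposited tables. Eomes fell by 0.94 (SE 0.18) in control cells, and Krt8 (-0.78 and -0.44) and Krt18 (-0.56 and -0.41) were not called in control or paused cells per the authors' deposited tables. Elf5 had a mean of 15.0 normalized counts per the authors' deposited table for control cells, and Tpbpa was in neither table. Of 8 mesoderm markers found, 1 rose and 3 fell in control cells and 1 rose and 4 fell in paused cells, with a summed share of 27.4 and 24.5 ppm. Of the fibroblast markers, 4 of 7 fell in control cells and 3 of 6 in paused cells, with a summed share of 596 and 1359 ppm. Fn1, not called in either condition, held 579 and 1341 ppm of that share, and Col1a1, which fell in both, held 8.28 and 5.52 ppm. Of the 10 embryonic stem cell markers, Nanog, Klf4 and Fgf4 rose in each condition, with medians over the 10 of 0.06 in control and -0.06 in paused cells. Pou5f1 fell by 0.18 (SE 0.06) in control cells and Tdgf1 by 0.21 (SE 0.05) in paused cells per the authors' deposited tables. Klf4 rose by 0.56 (SE 0.06) in control and 0.26 (SE 0.06) in paused cells per the authors' deposited tables, and its difference was called (-0.30, adjusted p 0.0264), in the direction opposite to Id1 and Id3. Hand1 and Cdx2 are on both the mesoderm and the BMP target list. In these bulk samples, fewer cells of a type and less RNA per cell cannot be told apart, and the part of other cell types in the changes of Bmp4 and the Id genes was not tested.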

How the data were processed

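Poly(A) RNA of E14 cells was sequenced as 24 libraries, whose titles place them in 6 groups of 4. Per the submitters' processing notes, the tools were FastQC, Trim Galore, HISAT2, featureCounts and DESeq2, with the mm10 build. Versions, the annotation and the strand setting are not given in the sources used here. Per the file headers, the authors deposited for each gene a signal value, the mean of its normalized counts over libraries. The change is a deposited log2 ratio with its standard error in log2 units. The statistic, a score as deposited, is the change over that error. The deposited p-value and adjusted p-value were checked: no adjusted value differed by over 1% from a recomputed Benjamini-Hochberg value. In control cells 2 genes have no p. No column was left without a sample or comparison.

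The values were results and not counts, so the deposited DESeq2 tests were used as they stand and p-values rest on the authors' errors. Whether the 4 libraries of a group came from separate cultures is not stated, so p-values may cover technical spread only. Folds, 95% intervals (change ± 1.96 SE), shares in ppm of the summed mean counts (4.61e+07 in control, 4.43e+07 in paused cells), counts per kilobase and the difference test were computed with Python 3.11.15, numpy 2.4.6, scipy 1.17.1 and pandas 2.3.3. The difference test was also run on simulated tables, with no outcome reported here, so that run adds no support to its calls. Exon lengths and positions are those of GENCODE M21 (GRCm38, the assembly of mm10), which may not be the annotation the authors counted on. Named genes were the 10 genes, Smad2, at most 4 called genes per role by size of change, and the 3 nearest genes to Bmp4 and to Id1; Bmp8a and other genes that overlap the 10 were named for shared reads, Tcf12 as the remaining E protein, and any other gene with its values in view. Some genes that this rule names are not reported here. The genes and lists were chosen with earlier results of these data known.

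Alternatives were an adjusted p under 0.01, a change of at least 2-fold, a null hypothesis of at most 1.2-fold, the statistic scaled to its middle spread, changes centred on the median of genes whose share was 5 ppm or more (the abundant genes), and adjustment over those genes alone.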

Additional observations from a re-analysis of the deposited data

Results flagged for a closer look

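The knockout change differed between control and paused cells for Id1 (0.48) and Id3 (0.35), by a test of the difference itself. Both changed upward in both conditions and further in paused cells. Of the 7 trophoblast markers found, Gata2 (1.11, adjusted p 2.94e-05) and Eomes (0.89, adjusted p 0.0326) had a positive difference that was called, beside 0.716% of all genes. Gata2 rose in both conditions, whereas Eomes fell by 0.94 in control cells and had a change of -0.06, not called, in paused cells per the authors' deposited tables. Their part in the result was not tested.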

How the results depend on the processing

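Only centring could move a change, by about 0.05, and it turned none of Id1, Id2, Id3, Id4, Bambi and Bmp4. The other alternatives left the changes as they were and altered the threshold, the null hypothesis, the scale of the statistic or the genes adjusted over. The number of the 10 genes called (6 in control, 6 in paused cells, 2 for the difference) was 0, 0 and 0 with a change of at least 2-fold, 1, 4 and 0 against a change of at most 1.2-fold, and 1, 2 and 1 with the scaled statistic. Centring gave 7, 8 and 2. Of the 19778, 19979 and 19134 genes tested, 7861, 8180 and 287 were called with centring. Against a change of at most 1.2-fold, the calls over those genes were 2090, 2122 and 2. Centring turned the control value of Smurf2 from -0.03 to 0.020. With an adjusted p under 0.01, Bambi was no longer called in paused cells (adjusted p 0.016). The minimum on abundance left out Bmp7 throughout and Id4 in control cells and for the difference. With it, 5, 6 and 2 genes were called in control cells, in paused cells and for the difference. Beside these, 5569, 5834 and 321 were called of all 10795, 11006 and 10958 genes that met the minimum. Pathway calls went from 38 and 40 to 9 and 13 at 2-fold (over all genes, 6.98% and 7.1% were called at 2-fold) and to 4 and 8 with the scaled statistic, in control and paused cells. Calls among Id partners went from 7 and 5 to 3 and 1 at 2-fold and to 1 and 0 with the scaled statistic. Over all genes the calls went from 8189 and 8504 to 293 and 450 with the scaled statistic, and the 275 calls for the difference to 35. Which part of the spread is error and which is small true change cannot be told apart without the libraries. No paired analysis was possible because the tables hold no value per library; leaving out each library was not run for the same reason. Depth was not given per library, so only the deposited standard errors measure precision.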
